A study of Mus musculus with 16 samples.

Results

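EAAT2+ astrocytes and Thy1+ neurons, sorted from the same brains, were compared across all protein-coding genes. The 4 astrocyte and 4 neuron libraries were taken by their labelled cell type and make 8 of the 16 libraries of the series, and the count table holds 22058 protein-coding genes. Both groups came from the whole brains of 4 untreated male C57BL/6 wildtype mice, numbered 2, 3, 4 and 5, whose age is not given in the sources used here. By the numbers in the sample titles, each mouse gave 1 library of each cell type. All values listed per library below follow the order of animals 2, 3, 4 and 5. The astrocytes were live cells collected by flow cytometry with an antibody to EAAT2, the glutamate transporter that Slc1a2 encodes. The neurons were live cells collected with an antibody to Thy1, a surface glycoprotein. Both gates left out cells positive for O1, an oligodendrocyte lipid, and for CD31, an endothelial protein. The other 8 libraries, 4 of CD11b+ microglia and 4 labelled input, did not enter the contrast. They did enter the filter on low counts, the scaling and the estimate of the spread between libraries.

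Astrocytes take up the glutamate, GABA and potassium that neurons release, return glutamine to them, store glycogen, make much of the cholesterol of the brain and cover blood vessels with endfeet rich in water channels. Neurons carry the machinery of excitability and of transmitter release: voltage-gated channels, synaptic vesicle proteins, receptors and a cytoskeleton built for long processes. Many transporters, pumps and enzymes of these pathways come as related genes, of which one is known mainly from astrocytes and another mainly from neurons.

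Total counts ran from 211087 to 710828 in the astrocyte libraries and from 116761 to 393199 in the neuron libraries, with levels given as CPM, counts scaled to the library size. The libraries were read from the 3' end of transcripts and levels are not divided by gene length. Mitochondrially encoded genes held 8.28% to 9.999% of the counts in astrocytes and 14.3% to 21.3% in neurons. Across the 9091 genes tested, log2 CPM of 2 libraries correlated between 0.716 and 0.908 within astrocytes, between 0.583 and 0.785 within neurons and between 0.516 and 0.629 across the cell types, where genes are not independent replicates. The neuron library of animal 5 stood apart: pituitary hormone genes summed to 86033 CPM there, against 373 to 1494 CPM in the other 7 libraries. Microglia markers summed to 2588 and 2797 CPM in the astrocyte libraries of animals 2 and 4 and to 8433 and 8314 CPM in those of animals 3 and 5, while the neuron libraries of animals 2, 3, 4 and 5 held 9055, 4046, 10801 and 2833 CPM. In both cell types the 2 libraries with the fewest counts were the 2 with the most microglia transcripts. In bulk libraries such as these, fewer cells of a type and less RNA per cell cannot be told apart.

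The labels were checked first on the genes of the sort and on the marker genes. The gates selected the products of Slc1a2 and Thy1, so that the direction of both genes was set by the sort. Slc1a2, on chromosome 2 at 102658659 to 102790784 of GRCm38.p6, had 10507, 8492, 9831 and 9302 CPM in astrocytes, against 2221, 1100, 2415 and 722 CPM in neurons. Every astrocyte library lay above every neuron library, with a log2 fold change of 2.57 ± 0.41 (SE) and an adjusted p of 1.44e-05 in edgeR's quasi-likelihood test. Values written with ± below are such log2 fold changes, astrocytes over neurons, with their standard errors. Glul, the glutamine synthetase gene, had 8572, 6994, 9012 and 6201 CPM in astrocytes, against 2306, 1175, 1912 and 653 CPM in neurons, and again the groups did not overlap (log2 fold change 2.36 ± 0.34).

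Syt1, the calcium sensor of synaptic vesicles, had 27.6, 84.9, 44.2 and 102 CPM in astrocytes, against 589, 750.3, 347 and 481 CPM in neurons (log2 fold change -3.17 ± 0.41, adjusted p 9.97e-07). Celf4, an RNA-binding protein gene of neurons, had 44.2, 59.95, 37.7 and 88.6 CPM in astrocytes, against 513, 975, 553 and 516 CPM in neurons (log2 fold change -3.56 ± 0.33). Both neuron markers were lower in all 4 astrocyte libraries, with the neuron library of animal 3 the highest for each. Thy1 itself had 55.3, 34.97, 55.7 and 106 CPM in astrocytes, against 188, 250.1, 262 and 254 CPM in neurons and was lower in astrocytes by a smaller step (log2 fold change -1.95 ± 0.37). The plot of sort and marker genes by library shows these levels.

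**Figure D1:**
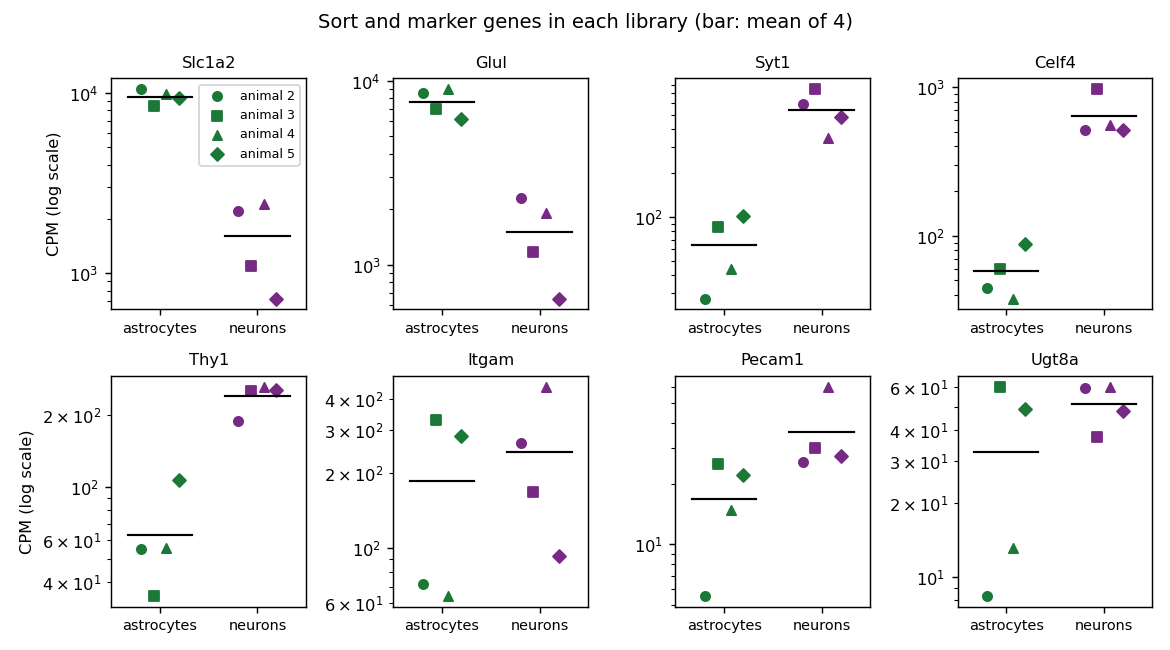
CPM on log axes for the sort and marker genes in each astrocyte and neuron library; the symbol gives the animal and the bar the mean of 4 libraries. Slc1a2, Glul, Syt1, Celf4 and Thy1 separate the groups, with Slc1a2 between 8492 and 10507 CPM in astrocytes and at most 2415 CPM in neurons, while Itgam and Ugt8a overlap.

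The genes of the other sort antibodies differed less. Itgam, which encodes CD11b, had 71.9, 329.7, 63.9 and 284 CPM in astrocytes, against 265, 168, 448 and 92.8 CPM in neurons, the groups overlapped and the test did not call it (adjusted p 0.52). Pecam1, which encodes CD31, had 5.53, 24.98, 14.8 and 22.1 CPM in astrocytes, against 25.6, 30.01, 60.4 and 27.5 CPM in neurons. All neuron libraries lay above all astrocyte libraries for Pecam1, at an adjusted p of 0.0512, and it was called lower without the astrocyte library of animal 3 or 5 or the neuron library of animal 2 or 5 (-1.26 to -1.39). Ugt8a, the enzyme behind the O1 antigen, had 8.29, 59.95, 13.1 and 48.7 CPM in astrocytes, against 59.8, 37.5, 60.4 and 48.1 CPM in neurons, and was not called (adjusted p 0.195), but was called lower without the astrocyte library of animal 3 (-1.32).

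The wider marker lists separated the groups, and neither group was free of the transcripts that mark the other. All 26 astrocyte markers were tested and all 26 were higher in astrocytes, with a median log2 fold change of 2.71, against a background of 14.8% of the 9091 tested genes called higher and a median of -0.04 over all of them. The 26 include Slc1a2, the gene of the astrocyte sort. Of the 23 neuron markers, all tested, 22 were lower in astrocytes against a background of 13.7% called lower, with a median of -2.73. Both lists were chosen with earlier results of these data known, so these counts are descriptions and not tests. Map2, a dendritic microtubule protein gene, was the exception: it had 304, 299.7, 328 and 403 CPM in astrocytes, against 444, 450.2, 297 and 378 CPM in neurons, at -0.23 ± 0.28 (adjusted p 0.582). The astrocyte list summed to 121702, 82877, 118611 and 88930 CPM in astrocytes, against 21655, 12274, 23489 and 7907 CPM in neurons. The neuron list summed to 1004, 1384, 994.6 and 1794 CPM in astrocytes, against 5305, 8353, 4251 and 8522 CPM in neurons. In the neuron libraries of animals 2, 3 and 4 the astrocyte list thus summed higher than the neuron list, and in that of animal 5 lower. The microglia list, at 9055 and 10801 CPM, also exceeded the neuron list in the neuron libraries of animals 2 and 4. In every astrocyte library the astrocyte list was far above the neuron list. The lists hold different genes, so these sums do not give shares of cells. The 8522 CPM of animal 5 include a level of Chgb far above that of the other neuron libraries, given below with the granule genes.

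Over all genes, 2590 of the 9091 tested passed an adjusted p of 0.05, which is 28.5%. Of these, 1343 were higher and 1247 lower in astrocytes. The share called higher was 51.9%, and 41.6% where libraries were scaled by their totals alone, which moves the median fold change of all genes by -0.18 on the log2 scale. At least 2-fold changes were fitted for 1232 genes called higher and 1159 called lower, and at least 4-fold changes for 501 and 579. Among the genes called higher, 1181 were higher in astrocytes in all 4 animals, and among those called lower, 954 were lower in all 4. These genes were called on the same libraries, which favours such agreement, so these counts are not separate support for the calls. Groups did not overlap in 1813 tested genes (19.9%): all astrocyte libraries lay above all neuron libraries in 1022 (11.2%) and below them in 791 (8.7%).

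**Figure D2:**
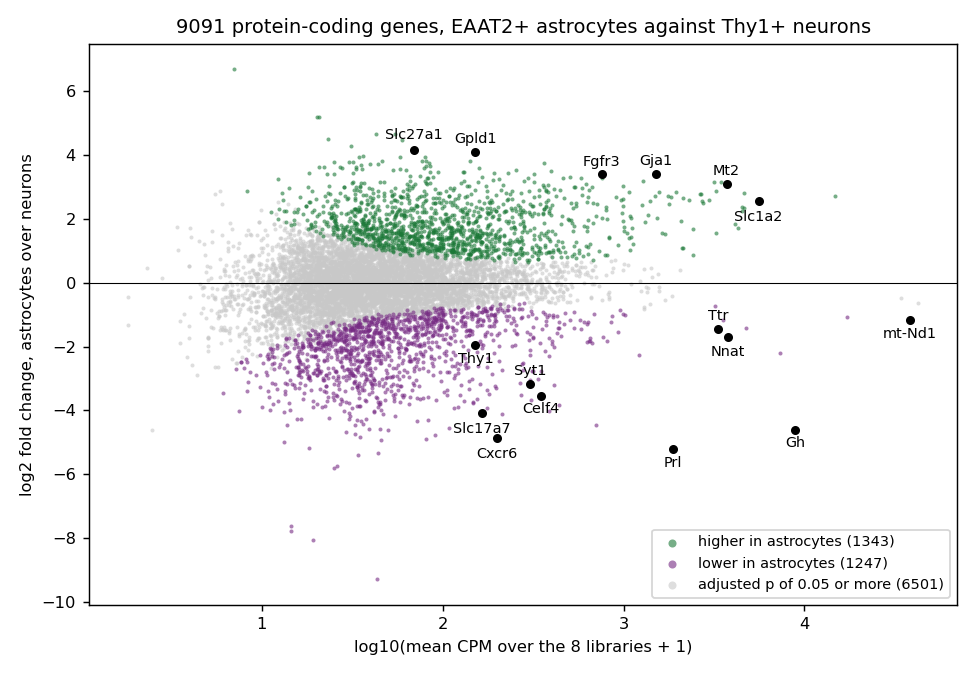
Fitted log2 fold change, astrocytes over neurons, against mean level over the 8 libraries for each of the 9091 tested genes; green genes were called higher in astrocytes (1343), purple genes lower (1247). Called genes lie on both sides of 0, and black points are named. Gh and Prl at the lower right rest on 1 neuron library, and the fitted value of a gene with 0 counts in a group depends on the fitting.

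Among the 10 most abundant genes called higher in astrocytes were Slc1a2, Aldoc, Glul, Sparcl1, Cst3, Mt2, Dbi, Gpm6a and Plpp3. Aldoc, the aldolase of astrocytes, had 10507, 6494, 8684 and 6644 CPM in astrocytes, against 1538, 800.3, 1560 and 722 CPM in neurons (2.82 ± 0.41). Sparcl1, a secreted matrix protein that promotes synapse formation, stood at 7087 to 8193 CPM in astrocytes and 791 to 2163 CPM in neurons, with a log2 fold change of 2.38 ± 0.36. Cst3, the secreted protease inhibitor cystatin C, stood at 6201 to 9995 CPM in astrocytes and 653 to 2365 CPM in neurons, and averaged 13560 CPM in the microglia libraries. Dbi, which encodes an acyl-CoA-binding protein that also acts on GABA receptors, stood at 5899 to 7087 CPM in astrocytes and 1709 to 2251 CPM in neurons (1.72 ± 0.28). Plpp3, a phosphatase of lysophospholipids, stood at 4341 to 8193 CPM in astrocytes and 344 to 1107 CPM in neurons (3.17 ± 0.40). The groups did not overlap for any of these 9 genes.

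The largest changes with at least 50 CPM in astrocytes and no overlap fell in Nr2e1, Gdpd2, Tst, Kirrel2, Slc27a1, Gpld1, Aass, Fam20a, Sardh, Lgi4, Slc2a10 and Ppp1r3g. Nr2e1, the nuclear receptor Tlx of neural stem cells and astrocytes, had 96.8, 79.9, 68.8 and 75.3 CPM in astrocytes, against 8.54, 2.50, 5.03 and 0 CPM in neurons. With 110 and 3 counts over the groups, the ratio of pooled levels was 26.4 with an exact 95% interval of 8.80 to 130.0 that covers counting error only. Slc27a1, a fatty acid transport protein, had 102, 119.9, 154 and 142 CPM in astrocytes, against 8.54, 5.00, 15.1 and 3.44 CPM in neurons (18.1-fold). Among the others, Aass starts the breakdown of lysine (15.8-fold), Sardh oxidises sarcosine (15.5-fold), Tst is a mitochondrial sulfur transferase (22.2-fold), and Gdpd2 is a glycerophosphodiesterase (25.4-fold). Gpld1, a phospholipase that cleaves GPI anchors, had 387, 135, 360.5 and 261 CPM in astrocytes, against 8.54, 12.5, 10.1 and 30.9 CPM in neurons (17.2-fold). Sardh was high in the astrocyte library of animal 5, at 119.6 CPM against 44.2 to 50.0 CPM in the other 3.

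In the other direction, the largest changes at the same limits were Ltb, Klrd1, Rnf112, Eef1a2, H2-Q7, Cxcr6, Rab15, Pianp, Tbx21, Syt13, Rims4 and Icam5. They fall into genes known from neurons and genes known from lymphocytes. Eef1a2, the translation elongation factor isoform of neurons and muscle, had 2.77, 5.00, 1.64 and 4.43 CPM in astrocytes, against 42.7, 112, 80.5 and 110.0 CPM in neurons, which makes it 30.1-fold lower in astrocytes. Rims4, a presynaptic active zone protein, was 24.5-fold lower, Icam5, an adhesion molecule of forebrain dendrites, 23.8-fold lower, and Pianp, a ligand of GABA-B receptors, 27.1-fold lower. Rab15, Syt13 and Rnf112 each had 3 counts over the astrocyte libraries, with pooled levels in neurons 31.0, 27.8 and 46.3 times those in astrocytes and exact 95% intervals from 10.2 to 154, from 9.06 to 139 and from 15.4 to 228 for the 3 genes in that order.

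Cxcr6, a chemokine receptor of T and NK cells, had 8.29, 14.99, 13.1 and 17.7 CPM in astrocytes, against 325, 400.1, 654 and 151 CPM in neurons. Klrd1, an NK cell receptor, and Tbx21, the T-bet transcription factor, had 2 and 3 counts over the astrocyte libraries and 73 and 62 over the neuron libraries. Their pooled levels were 50.7 times higher in neurons for Klrd1 (interval 13.5 to 426) and 28.7 times higher for Tbx21 (9.38 to 143). Ltb, the lymphotoxin beta gene, had 0 counts in astrocytes and 102.5, 75.0, 135.8 and 24.1 CPM in neurons, so that it was at least 35.2-fold lower in astrocytes with the floor set at 3 counts over the group. H2-Q7, a non-classical MHC gene with close paralogues that can share reads, had 8.29, 19.98, 0 and 0 CPM in astrocytes, against 93.97, 238, 156 and 127 CPM in neurons.

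Uptake and recycling of glutamate split by the side of the synapse. Of 10 listed genes of the astrocyte side, all tested, 9 were higher in astrocytes and none lower. The 9 include Slc1a2, whose direction was set by the sort. Slc1a3, which encodes the other glial glutamate transporter, had 5254, 4396, 6882 and 6201 CPM in astrocytes, against 1196, 600.2, 1107 and 230.3 CPM in neurons (log2 fold change 2.88 ± 0.39). Glud1, glutamate dehydrogenase, stood at 1299 to 1908 CPM in astrocytes and 224 to 704 CPM in neurons (1.94 ± 0.31), and Slc38a3, which exports glutamine, at 151 to 415 CPM in astrocytes and 13.8 to 50.3 CPM in neurons (3.17 ± 0.40). Slc25a18, a mitochondrial glutamate carrier, had the largest change of the list that passed, at 3.61 ± 0.40 (12.2-fold).

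Of 10 genes of the neuron side, 8 were tested, 7 were lower in astrocytes and none higher. Slc17a7, the vesicular glutamate transporter of forebrain and cerebellar granule neurons, had 11.1, 29.97, 8.19 and 35.4 CPM in astrocytes, against 273, 218, 352 and 378 CPM in neurons, a 17.01-fold lower level. Slc1a1, the neuronal glutamate transporter, had 5.53, 14.99, 6.55 and 17.7 CPM in astrocytes, against 25.6, 67.5, 65.4 and 24.1 CPM in neurons (-2.29 ± 0.53), and Got1, the cytosolic aspartate aminotransferase, was 2.80-fold lower. Slc38a1, a neuronal glutamine importer, was the tested member that passed in neither direction, at 155 to 229 CPM in astrocytes and 127 to 236 CPM in neurons (0.13 ± 0.26, adjusted p 0.76).

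GABA handling divided within a single list of 8 genes, all tested, with 5 higher and 3 lower in astrocytes. The higher genes serve uptake, breakdown and glial synthesis. Slc6a11, the GABA transporter GAT-3, had 7466, 4346, 6390 and 4429 CPM in astrocytes, against 854, 450.2, 956 and 316 CPM in neurons (3.15 ± 0.41). Abat, the GABA transaminase, was higher by 1.85 ± 0.34, Aldh5a1, the next enzyme of the pathway, by 1.81 ± 0.40, and Maob, which takes part in GABA synthesis from putrescine in astrocytes, by 2.56 ± 0.36. The lower genes were those of GABA neurons: Slc32a1, the vesicular GABA transporter, had 5.53, 19.98, 11.5 and 22.1 CPM in astrocytes, against 154, 183, 151 and 182 CPM in neurons (-3.66 ± 0.44), Gad1 changed by -2.37 ± 0.38 and Gad2 by -2.50 ± 0.62.

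Water, potassium and gap junction genes were higher in astrocytes in 11 of 12 tested members of a list of 13. Aqp4, the water channel of endfeet, had 1272, 1049, 1213 and 1019 CPM in astrocytes, against 316, 128, 282 and 113 CPM in neurons (2.50 ± 0.36). Gja1, which encodes connexin 43, had 3318, 1998, 3769 and 1949 CPM in astrocytes, against 316, 210.1, 418 and 107 CPM in neurons (10.7-fold higher). Mlc1, an endfoot membrane protein, stood at 2098 to 4424 CPM in astrocytes and 292 to 704 CPM in neurons (2.68 ± 0.38) and Slc4a4, a sodium bicarbonate cotransporter, at 1748 to 2599 CPM in astrocytes and 120.3 to 704 CPM in neurons (2.44 ± 0.42).

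Among 11 tandem-pore and inward rectifier potassium channels, 6 passed the filter on low counts. Kcnj10 (Kir4.1), the potassium buffering channel of astrocytes, was higher at 2.71 ± 0.37, its partner Kcnj16 at 2.46 ± 0.41 and the tandem-pore channel Kcnk1 at 2.28 ± 0.32. Kcnj4, a channel of forebrain neurons, was lower, with 0, 5.00, 4.92 and 8.86 CPM in astrocytes, against 128, 90.03, 60.4 and 27.5 CPM in neurons (-4.03 ± 0.65). Kcnk2 was not called at 208 to 470.1 CPM in astrocytes and 145 to 481 CPM in neurons, its highest value was in the neuron library of animal 5, and without that library it was called higher (0.96). Kcnk3, Kcnk9 and Kcnj9 were below the filter, with at most 2.77 CPM in astrocytes for the first 2 and at most 8.29 CPM for Kcnj9, and every neuron library above every astrocyte library for each.

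Subunits of the sodium-potassium pump, which rebuilds the ion gradients, went in both directions. Of 10 listed subunits and regulators, 9 were tested, 4 were higher in astrocytes and 3 lower. Atp1b2, the beta subunit of glia, had 4424, 2198, 3277 and 2348 CPM in astrocytes, against 513, 375, 654 and 340.3 CPM in neurons (2.71 ± 0.35). Atp1b1, another beta subunit, was lower in astrocytes, at 553, 749, 623 and 753 CPM in astrocytes, against 1196, 1375, 1258 and 1409 CPM in neurons (-0.97 ± 0.28). Nkain4, which encodes a protein that binds the beta subunit, was 9.69-fold higher, and Fxyd1, a regulator of the pump, 5.64-fold higher.

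Genes of lipid supply were mostly higher in astrocytes. Of 22 cholesterol synthesis genes, 19 were tested, 15 were higher and none lower, with a median log2 fold change of 1.80. Msmo1, a sterol oxidase, had 2267, 1199, 2294 and 1772 CPM in astrocytes, against 273, 248, 377 and 158 CPM in neurons (2.85 ± 0.30), and Hmgcs1, which makes the precursor of mevalonate, had 940.1, 419.6, 967 and 930.2 CPM in astrocytes, against 222, 275, 221 and 175 CPM in neurons (1.87 ± 0.29). Srebf2, the transcription factor that controls the pathway, was 2.57-fold higher. The astrocyte library of animal 3 had the lowest Hmgcs1 of its group, with the other 3 close together.

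Lipid export and fatty acid genes were also mostly higher, with 2 members called lower in each list. Of 14 tested genes of lipoprotein and lipid export (15 listed), 9 were higher (64.3%) and 2 lower (14.3%, near the background of 13.7%). The lower genes, Abcg1 and Apod, are named after their values were seen, and neither was called without the astrocyte library of animal 2. Apoe, the main lipoprotein of the brain, had 4977, 4846, 5571 and 4872 CPM in astrocytes, against 1196, 650.2, 1157 and 344 CPM in neurons (2.61 ± 0.34), Clu stood at 1948 to 3042 CPM in astrocytes and 300.1 to 503 CPM in neurons (2.72 ± 0.36), and the lipoprotein receptor Lrp1 was 2.82-fold higher. Of 22 tested genes of fatty acid uptake and oxidation (23 listed), 15 were higher (68.2%) and 2 lower (9.09%, against that background of 13.7%). Acsl3, an acyl-CoA synthetase, had 4701, 3247, 4096 and 3676 CPM in astrocytes, against 1025, 400.1, 956 and 265 CPM in neurons (2.59 ± 0.41), Acsbg1, the bubblegum synthetase, was 5.62-fold higher and Cpt1a, the gate of mitochondrial fatty acid oxidation, 3.64-fold higher. The 2 lower members were Fabp3 and Acsl4, whose relatives Fabp7 and Acsl6 were higher, as given with the pairs of related genes.

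Serine and glycine genes were higher in 9 of 11 tested members of 14 and lower in none. Psat1, of serine synthesis, was 3.70-fold higher, Slc1a4, a serine and alanine exchanger, 8.40-fold, and Slc6a9, the glycine transporter of glia, 5.99-fold. Slc7a10, which exchanges D-serine and glycine, had 719, 395, 737 and 416 CPM in astrocytes, against 76.9, 42.5, 111 and 41.2 CPM in neurons (3.16 ± 0.34).

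Glycogen genes were higher in 12 of 14 tested members of 15, with none lower. Pygb, glycogen phosphorylase, had 802, 499.6, 868 and 354 CPM in astrocytes, against 59.8, 120.0, 111 and 168 CPM in neurons (2.41 ± 0.32). Ppp1r3c and Ppp1r3g, which direct a phosphatase to glycogen, were 4.60-fold and 14.2-fold higher, and Phka1, a phosphorylase kinase subunit, 5.82-fold higher. Of 21 tested glycolysis and lactate genes (25 listed), 7 were higher (33.3%), 2 lower (Slc2a3 and Eno2) and 12 not called. The 2 lower genes are 9.52% of those tested, against a background of 13.7%. Of 22 tested glutathione and peroxide genes (26 listed), 11 were higher (50%) and 2 lower (9.09%, against a background of 13.7%). The lower ones, Gpx1 and Txnip, are named after their values were seen. Prdx6, a peroxiredoxin, had 1963, 1249, 2130 and 1063 CPM in astrocytes, against 325, 350.1, 392 and 344 CPM in neurons (2.18 ± 0.32). Gstm5, a glutathione transferase, was 8.36-fold higher.

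Metallothioneins, small cysteine-rich proteins that bind zinc and copper, were among the most abundant transcripts that differed. Mt1 had 5254, 3947, 4588 and 4872 CPM in astrocytes, against 803, 700.2, 1157 and 653 CPM in neurons (2.50 ± 0.31), Mt2 had 6083, 6494, 6063 and 7973 CPM in astrocytes, against 939.7, 700.2, 1056 and 412 CPM in neurons (3.11 ± 0.38) and Mt3, the brain isoform, had 1521, 499.6, 1442 and 753 CPM in astrocytes, against 68.3, 175, 75.5 and 96.3 CPM in neurons (3.27 ± 0.37). The groups did not overlap for any of the 3. Of the 10 genes of the metallothionein and zinc list, 8 were tested and 6 were higher in astrocytes, among them the zinc importer Slc39a12 (8.10-fold) and the transporter Slc30a10 (11.7-fold). Mtf1, the factor that binds the metal response element, was not called, at 22.1 to 49.96 CPM in astrocytes and 13.8 to 27.5 CPM in neurons (0.73 ± 0.49, adjusted p 0.286).

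The 3 metallothionein genes lie in one cluster on chromosome 8, and their promoters are shown because the genes moved together and the metal response element is the known control sequence of the family. Each line gives 300 bases of the RefSeq promoter table (GRCm38.p6), 250 before to 50 after the gene's start, with matches to TGCGCNC or TGCACNC on either strand in capitals. The windows are chr8:94178839-94179138 for Mt1, chr8:94172368-94172667 for Mt2 and chr8:94152357-94152656 for Mt3, all on the plus strand.
Mt1: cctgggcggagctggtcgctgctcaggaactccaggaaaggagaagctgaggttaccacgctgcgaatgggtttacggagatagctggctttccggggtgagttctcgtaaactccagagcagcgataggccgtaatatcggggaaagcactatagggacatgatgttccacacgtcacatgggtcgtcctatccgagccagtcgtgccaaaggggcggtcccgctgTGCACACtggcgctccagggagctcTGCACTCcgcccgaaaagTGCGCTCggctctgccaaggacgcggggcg
Mt2: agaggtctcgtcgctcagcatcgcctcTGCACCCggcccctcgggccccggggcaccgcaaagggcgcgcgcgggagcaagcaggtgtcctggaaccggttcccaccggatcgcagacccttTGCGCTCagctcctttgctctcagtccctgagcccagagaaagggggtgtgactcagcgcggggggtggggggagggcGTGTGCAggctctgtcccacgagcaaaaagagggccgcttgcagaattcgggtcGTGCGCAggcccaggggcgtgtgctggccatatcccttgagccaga
Mt3: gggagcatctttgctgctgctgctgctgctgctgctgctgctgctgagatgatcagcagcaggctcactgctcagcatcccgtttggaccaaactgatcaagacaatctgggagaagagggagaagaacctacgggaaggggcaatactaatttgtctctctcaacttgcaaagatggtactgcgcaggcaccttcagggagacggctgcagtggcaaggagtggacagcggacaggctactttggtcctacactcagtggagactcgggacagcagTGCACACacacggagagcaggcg
Mt1 held 3 matches, Mt2 held 4 and Mt3 held 1. Among the 32851 promoter windows of the table, 25.7% held at least 1 match, 1.97% at least 3 and 0.517% at least 4. A match is a description of letters and was not tested for binding.

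Secreted factors, receptors and transcription factors of astrocytes followed the same direction. Of 23 secreted factors, 19 were tested, 15 were higher and none lower. Cspg5, a neural proteoglycan, had 3318, 3247, 3932 and 3101 CPM in astrocytes, against 666, 400.1, 704 and 155 CPM in neurons (2.84 ± 0.42), and Sparc stood at 2198 to 3595 CPM in astrocytes and 1050 to 1610 CPM in neurons, a smaller step of 1.09 ± 0.28. Of 24 surface receptors, 22 were tested, 18 were higher and none lower. S1pr1, a sphingosine phosphate receptor, had 5530, 3497, 5243 and 4429 CPM in astrocytes, against 1025, 425, 1056 and 258 CPM in neurons (2.78 ± 0.38). Fgfr3, an FGF receptor of astrocytes, was 10.6-fold higher, Gpr37l1, a receptor for prosaposin fragments, 6.96-fold, and Ntrk2, the receptor for BDNF, 5.59-fold.

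Notch, Wnt, Hedgehog and BMP pathway genes were higher in 22 of 31 tested members and lower in 1, Lef1, named after its value was seen, whose call was lost without any one of 5 libraries. Among glial transcription factors, 21 of 25 tested members of 26 were higher. Sox9, which marks astrocyte nuclei, had 2157, 1299, 1802 and 1329 CPM in astrocytes, against 342, 195, 428 and 162 CPM in neurons (2.58 ± 0.36). Id2 was 2.98-fold and Id4 5.58-fold higher; both encode inhibitors of basic helix-loop-helix factors. Zbtb20 moved less, at 0.89 ± 0.26. The member that was lower in astrocytes was Zic1, a factor of cerebellar and other neurons, with 205, 285, 213 and 208 CPM in astrocytes, against 564, 725, 267 and 516 CPM in neurons (-1.20 ± 0.29).

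Synaptic genes were lower in astrocytes with named exceptions. Of 32 synaptic vesicle and release genes, 26 were tested, 20 were lower and 1 was higher. Snap25, a SNARE protein, had 27.6, 74.9, 44.2 and 128 CPM in astrocytes, against 735, 650.2, 317 and 447 CPM in neurons (-3.06 ± 0.39), and Sv2a, a vesicle glycoprotein, had 47.01, 84.9, 40.96 and 57.6 CPM in astrocytes, against 384, 350.1, 342 and 378 CPM in neurons (-2.73 ± 0.28). The higher member was Syt11, a synaptotagmin that does not bind calcium, with 1438, 1499, 1802 and 1462 CPM in astrocytes, against 700.5, 700.2, 553 and 412 CPM in neurons (1.40 ± 0.26). Of 19 tested postsynaptic genes (24 listed), 9 were lower and 3 higher (15.8%, near the background of 14.8%). Ppp3ca, a calcineurin subunit, was lower, at -1.01 ± 0.27. Among the higher genes were Nlgn1, a synaptic adhesion gene, and Camk2g, both named after their values were seen, and 1 of the 3 was called without the astrocyte library of animal 2 or 4 or the neuron library of animal 3.

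Voltage-gated channels and receptor subunits were mostly lower where called. Of 15 tested voltage-gated channel genes (24 in the table), 10 were lower in astrocytes and none higher. Cacnb4, a calcium channel subunit, had 19.4, 59.95, 11.5 and 84.2 CPM in astrocytes, against 154, 250.1, 272 and 241 CPM in neurons (-2.63 ± 0.41), and Scn8a, a sodium channel of axons, was 3.73-fold lower. Of 16 tested ionotropic receptor subunits (25 listed), 7 were lower and 3 higher (18.75%, against a background of 14.8%). The higher subunits included Gabrb1, a GABA-A receptor subunit, with 691, 549.5, 803 and 487 CPM in astrocytes, against 137, 110.0, 131 and 72.2 CPM in neurons (2.54 ± 0.34), and Grin2c, an NMDA receptor subunit, with 608, 319.7, 606 and 328 CPM in astrocytes, against 145, 77.5, 65.4 and 55.00 CPM in neurons (2.55 ± 0.35). The third was Gabrg1, named here after its value was seen.

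Among 13 tested neuropeptide and granule genes (23 listed), 9 were lower and 2 higher (15.4%, near the background of 14.8%). Without the neuron library of animal 5, 7 were lower. Scg2, a secretogranin, had 19.4, 29.97, 31.1 and 70.9 CPM in astrocytes, against 410.0, 350.1, 181 and 481 CPM in neurons (-3.31 ± 0.42). The higher genes encode proteins of the secretory granule: Cpe, the prohormone-processing carboxypeptidase, had 4977, 3597, 5407 and 5315 CPM in astrocytes, against 1367, 1375, 1459 and 2303 CPM in neurons (1.57 ± 0.34), and Scg3 had 774, 749, 1049 and 930.2 CPM in astrocytes, against 111, 140.0, 196 and 162 CPM in neurons (2.51 ± 0.30). Chgb, chromogranin B, had 33.2, 125, 19.7 and 84.2 CPM in astrocytes, against 273, 375, 111 and 2510 CPM in neurons, with the neuron library of animal 5 far above the other 3.

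Of 23 tested genes of neurofilaments, tau and tubulins (24 listed), 12 were lower and 3 higher (13.0%, near the background of 14.8%). Tubb3, the neuronal beta tubulin, had 69.1, 64.9, 54.1 and 111 CPM in astrocytes, against 316, 575, 337 and 688 CPM in neurons (-2.74 ± 0.35). Tubb2a and Tubb2b went the other way, by 1.41 ± 0.27 and 2.35 ± 0.35, and Tubb2b had 1327, 419.6, 1245 and 532 CPM in astrocytes, against 162, 208, 252 and 79.1 CPM in neurons. The third higher gene, Tuba4a, is named after its value was seen. These tubulins are close paralogues, so that reads can be split between them. Of 19 tested neuronal transcription factors (27 listed), 13 were lower and 2 higher (10.5%, against a background of 14.8%). Myt1l, which keeps neuronal identity, had 22.1, 54.95, 22.9 and 39.9 CPM in astrocytes, against 282, 325, 191 and 344 CPM in neurons (-3.17 ± 0.34), and Mef2c was lower, at -1.09 ± 0.29. Rest, a repressor of neuronal genes named after its value was seen, was among the higher genes, with 1 of the 2 called when any one library but the astrocyte library of animal 2 was left out. Of 15 tested neuronal RNA-binding genes (20 listed), 7 were lower, with Elavl3 at -1.95 ± 0.39.

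**Figure D3:**
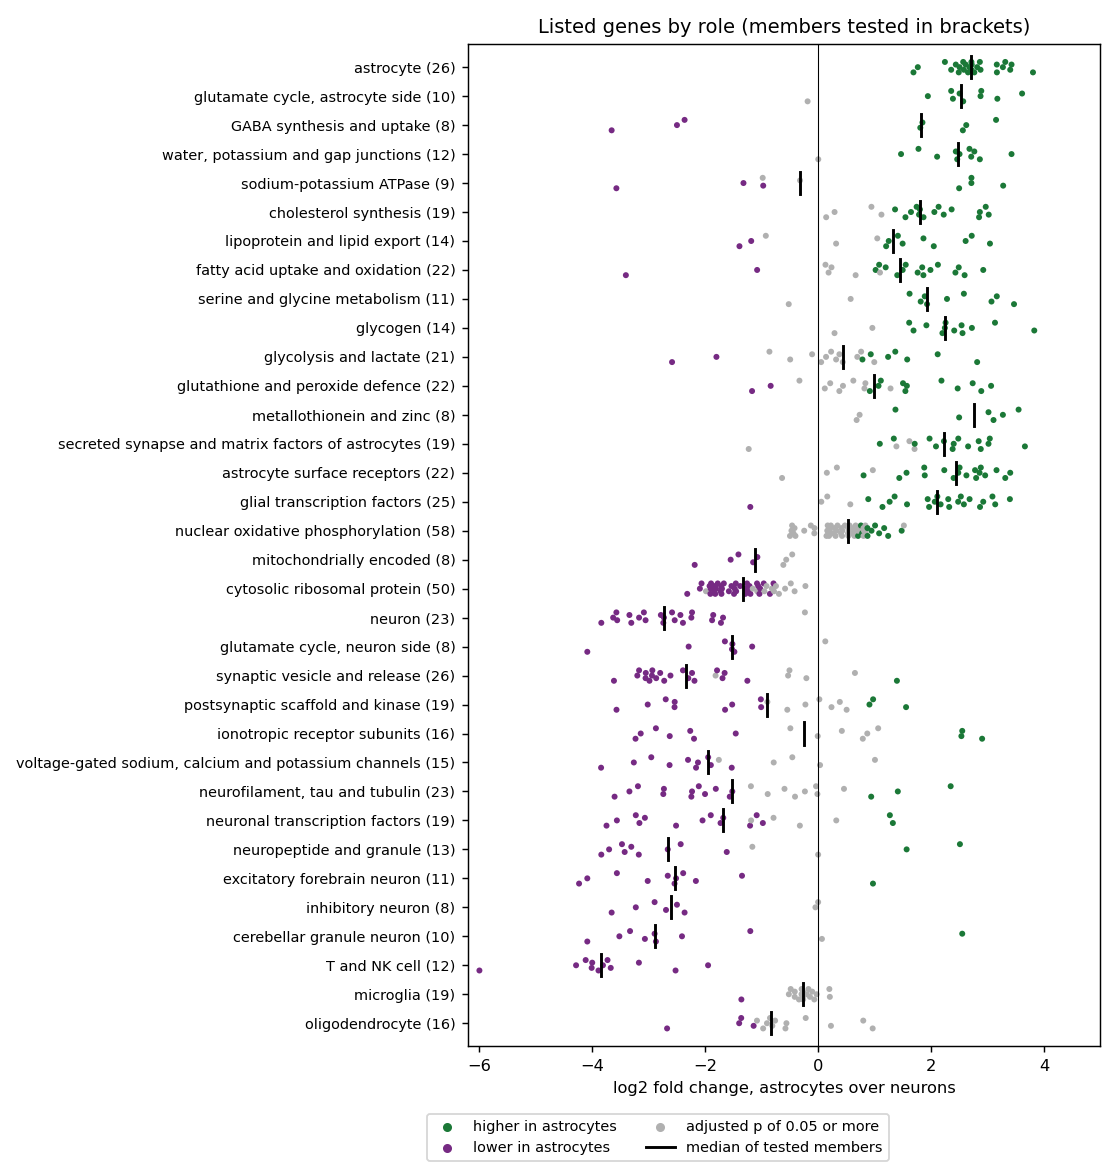
Fitted log2 fold change, astrocytes over neurons, of the tested members of 34 gene lists; each point is a gene, coloured by its call, and the black bar is the median of the members tested. Astrocyte-side lists sit right of 0 with medians such as 2.71 for astrocyte markers, neuron-side lists left of 0 with medians such as -2.73 for neuron markers, and 1 T and NK cell gene with 0 counts in astrocytes (Ltb) is drawn at the left edge.

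Markers of several neuron types were lower in astrocytes. Of 11 tested excitatory forebrain genes (14 listed), 10 were lower, with Nrgn, a calmodulin-binding postsynaptic protein, at 74.7, 89.9, 37.7 and 137 CPM in astrocytes, against 376, 600.2, 287 and 584 CPM in neurons (-2.54 ± 0.35) and Camk2a at 8.11-fold lower. The member that was higher was Lmo4, a LIM-domain cofactor (0.97 ± 0.25). Of 11 inhibitory neuron genes, 8 were tested and 6 were lower. Pvalb was 6.48-fold, Dlx1 9.38-fold and Calb2 7.45-fold lower. Sst and Vip were below the filter, and Lhx6 had 0 CPM in all 8 libraries.

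Striatal markers were lower in 4 of 5 tested members, of 13 listed, with Penk, the enkephalin precursor, at 11.1, 29.97, 21.3 and 66.4 CPM in astrocytes, against 444, 425, 302 and 141 CPM in neurons (-3.48 ± 0.45). Adora2a, the adenosine receptor of striatal neurons, had 27.6, 14.99, 19.7 and 22.1 CPM in astrocytes, against 102, 85.03, 70.4 and 41.2 CPM in neurons (-1.75 ± 0.51). Of 12 cerebellar granule neuron genes, 10 were tested, 8 were lower and 1, Grin2c, was higher. Cbln1, the cerebellin of granule cells, had 5.53, 14.99, 6.55 and 17.7 CPM in astrocytes, against 25.6, 153, 141 and 103 CPM in neurons (-3.52 ± 0.52), Cbln3 was 5.32-fold lower, Neurod1 8.39-fold and the receptor subunit Gabra6 7.33-fold lower. The Bergmann glia list, the astrocytes of the cerebellar cortex, ran the other way with 9 of 12 genes higher, all 12 tested. Gdf10, a secreted growth factor of the list, had 442, 205, 409.6 and 106 CPM in astrocytes, against 68.3, 20.01, 40.2 and 13.8 CPM in neurons (3.32 ± 0.43), and A2m was 6.97-fold and Hopx 5.69-fold higher.

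Second messenger genes leaned towards neurons. Of 27 tested phosphodiesterase, cyclase and calcium signalling genes (32 listed), 21 were lower in astrocytes and 4 higher, 2 of them without the neuron library of animal 5. The 4 higher genes are 14.8% of those tested, the same share as the background of 14.8%. Calm2, a calmodulin gene, had 194, 329.7, 197 and 239 CPM in astrocytes, against 854, 700.2, 704 and 275 CPM in neurons (-1.41 ± 0.30). Gnao1, the alpha subunit of the G protein Go, was higher, at 829.5, 949, 983 and 886 CPM in astrocytes, against 367, 525, 312 and 344 CPM in neurons (1.23 ± 0.29). Of 14 tested regulators of G protein signalling (17 listed), 6 were lower and 2 higher, Rgs20 and Rgs12, the second named after its value was seen, with 1 of the 2 called without the astrocyte library of animal 4 or the neuron library of animal 3. These 2 are 14.3% of the regulators tested, near that background.

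Immature neuron genes were lower in 8 of 13 tested members of 14, and Tubb2b was higher. Stmn2, a regulator of microtubules in growing neurites, had 16.6, 54.95, 26.2 and 39.9 CPM in astrocytes, against 265, 450.2, 246 and 306 CPM in neurons (-3.34 ± 0.36). Of 12 tested genes of glial intermediate filaments and reactive glia (17 listed), 1, Gfap, was higher, and 2, Cd44 and Lgals3, were lower, all 3 named after their values were seen, and without the astrocyte library of animal 2 none of them was called. Their shares were 8.33% higher and 16.7% lower, against backgrounds of 14.8% and 13.7%. Quaking (Qk), a glial RNA-binding gene, was higher, at 1604, 1449, 1524 and 1772 CPM in astrocytes, against 743, 425, 956 and 265 CPM in neurons (1.43 ± 0.31), with Msi1 and Msi2, named after their values were seen, the other 2 called of 18 tested glial and general RNA-binding genes. These 3 are 16.7% of the tested members, near the background of 14.8% called higher.

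Related genes were then set against each other in 25 listed pairs, of which 23 had both members tested. In 10 pairs the first gene was higher and the second lower in astrocytes, in 3 both were higher, and in 10 one or both were not called. The pairs and the order within them were chosen, with earlier results of these data known, so these counts describe the listed pairs only. The 10 split pairs were Atp1b2 and Atp1b1, Eno1 and Eno2, Slc2a1 and Slc2a3, Fabp7 and Fabp3, Slc1a2 and Slc1a1, Ndrg2 and Ndrg4, Acsl6 and Acsl4, Syt11 and Syt1, Rgs20 and Rgs4, and Itpr2 and Itpr1. Among these, the direction of Slc1a2 was set by the sort. The calls of 4 members depend on single libraries. Acsl4 was not called without the library of animal 2 or 4 of the astrocytes or 3 or 4 of the neurons (-0.61 to -1.06), Slc2a1 not without astrocytes of animal 2 or neurons of animal 3 or 5 (0.72 to 0.77), Itpr2 not without neurons of animal 5 (0.74), and Slc39a1 not without neurons of animal 3 (1.10). Eno1 was not called with all libraries of animal 5 left out (1.53). The difference between the fold changes of 2 genes was not tested.

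Fabp7, the brain lipid-binding protein of radial glia and astrocytes, had 912, 1449, 1802 and 974 CPM in astrocytes, against 376, 450.2, 337 and 138 CPM in neurons. Fabp3, the heart-type protein also found in neurons, had 8.29, 0, 1.64 and 4.43 CPM in astrocytes, against 51.3, 40.01, 20.1 and 48.1 CPM in neurons. Rgs20, a regulator of G protein signalling, had 829.5, 415, 852 and 487 CPM in astrocytes, against 162, 92.5, 85.5 and 34.4 CPM in neurons (2.90 ± 0.37), while Rgs4, known from cortical neurons, had 24.9, 49.96, 29.5 and 57.6 CPM in astrocytes, against 188, 235, 131 and 113 CPM in neurons (-2.15 ± 0.33). Itpr2, the calcium release channel of astrocytes, was 2.05-fold higher and Itpr1, abundant in Purkinje cells, 4.46-fold lower.

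Glucose handling held split pairs and pairs with a member not called. Slc2a1, the glucose transporter of endothelium and glia, had 608, 335, 360.5 and 399 CPM in astrocytes, against 273, 158, 357 and 131 CPM in neurons (0.93 ± 0.32), and Slc2a3, the neuronal transporter, had 11.1, 14.99, 8.19 and 13.3 CPM in astrocytes, against 25.6, 45.02, 40.2 and 37.8 CPM in neurons (-1.80 ± 0.51). Eno2, neuron-specific enolase, was 6.01-fold lower. Aldoc, the glial aldolase, was 7.04-fold higher, while Aldoa was not called at 94.9 to 243 CPM in astrocytes and 165 to 191 CPM in neurons (0.14 ± 0.27). Ldhb was 2.58-fold higher and Ldha was not called (0.32 ± 0.34). The lactate transporters Slc16a1 (0.99 ± 0.41, adjusted p 0.0712) and Slc16a7 (-0.86 ± 0.74, adjusted p 0.419) passed in neither direction, but Slc16a1 was called higher without the astrocyte library of animal 3 (1.17), the neuron library of animal 2 (1.41) or that of animal 4 (1.23).

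Both genes were higher for Gpm6b with Gpm6a, for Tubb2b with Tubb2a and for Slc39a12 with Slc39a1. Gpm6a, a membrane glycoprotein known from neurites, had 8019, 4246, 8193 and 5315 CPM in astrocytes, against 2221, 1701, 2163 and 1134 CPM in neurons (1.84 ± 0.36) beside Gpm6b at 1.54 ± 0.35. Dclk1, listed on the neuron side as a doublecortin-like kinase, was also higher in astrocytes, at 1548, 2098, 1524 and 1905 CPM in astrocytes, against 504, 350.1, 553 and 319.7 CPM in neurons (2.05 ± 0.32), and Dclk2 was not called (-0.54 ± 0.51).

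**Figure D4:**
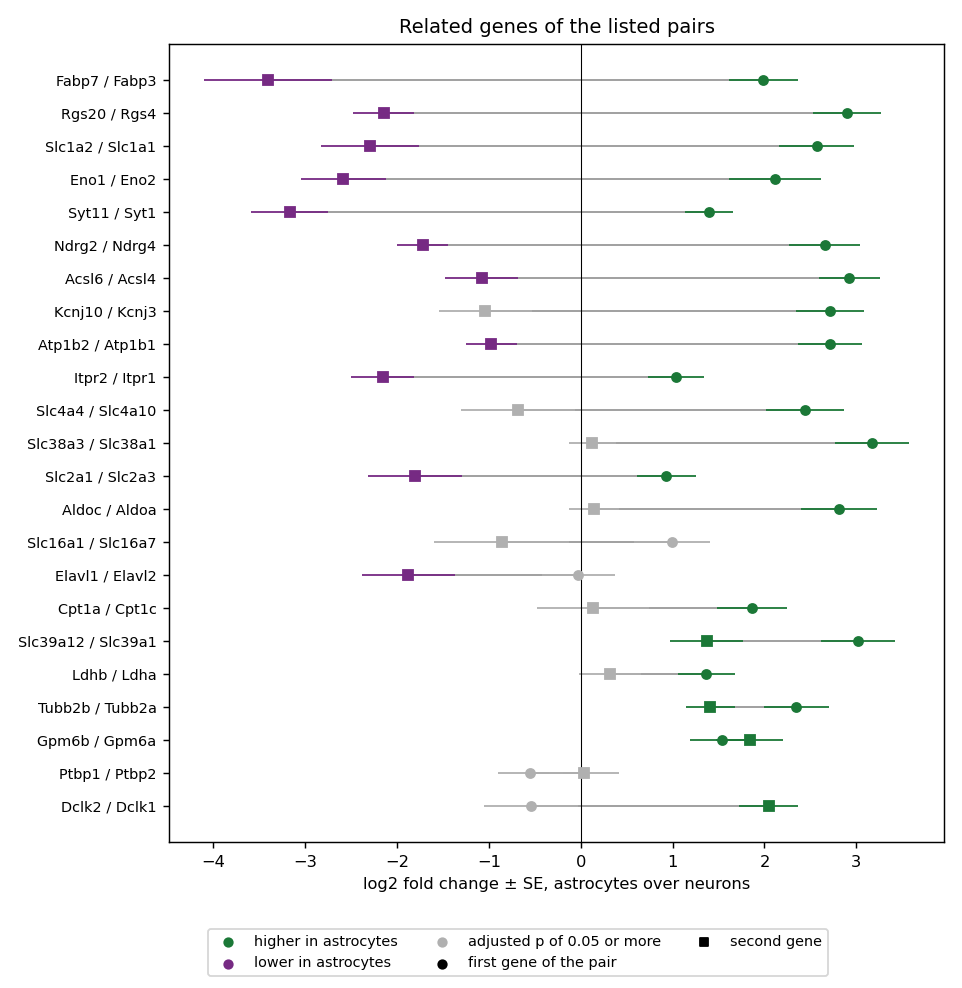
Fitted log2 fold change ± SE, astrocytes over neurons, for both genes of the 23 pairs with both members tested, sorted by the distance between the genes; circles are the first gene, squares the second. In 10 pairs the circle is green and the square purple, among them Fabp7 (1.99) with Fabp3 (-3.41).

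Genes of mitochondria and ribosomes also differed. Of 13 mitochondrially encoded genes, 8 were tested, 5 were lower in astrocytes and none higher. mt-Nd1, a complex I subunit, had 23780, 23979, 21301 and 25691 CPM in astrocytes, against 61506, 57520, 50309 and 41253 CPM in neurons (-1.15 ± 0.35), and mt-Co1, of cytochrome oxidase, had 2461, 2748, 2786 and 2613 CPM in astrocytes, against 19648, 10254, 11571 and 6875 CPM in neurons (-2.19 ± 0.36). mt-Nd4 was not called (-0.62 ± 0.35, adjusted p 0.194), although all neuron libraries lay above all astrocyte libraries. Of 58 tested nuclear genes of oxidative phosphorylation, 11 were higher in astrocytes (18.97%, near the background of 14.8%) and none lower, with Atp5g3, an ATP synthase subunit, at 0.87 ± 0.29. Without the astrocyte library of animal 4, 7 of the 58 were called higher, and Atp5g3 was not called without the astrocyte library of animal 2 or 4 or the neuron library of animal 3. With scaling by library totals alone, 6 of the 58 were higher and 1 lower.

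Cytosolic ribosomal protein genes were lower in astrocytes in 37 of 50 tested members of 72, with none higher. The list summed to 6014, 8203, 5992 and 8296 CPM in astrocytes, against 18640, 17334, 17895 and 19705 CPM in neurons. Rps14 had 442, 699, 442 and 664 CPM in astrocytes, against 1367, 800.3, 1207 and 1238 CPM in neurons (-1.04 ± 0.28) and Rpl26 had 210.1, 399.6, 229 and 385 CPM in astrocytes, against 675, 825, 654 and 1822 CPM in neurons (-1.73 ± 0.33). Many ribosomal protein genes have processed copies elsewhere in the genome, so that reads can be lost or shared. Early response and stress genes were lower in 10 of 20 tested members of 22 and higher in none; Junb, an AP-1 subunit, had 77.4, 219.8, 50.8 and 204 CPM in astrocytes, against 436, 600.2, 503 and 997 CPM in neurons (-2.29 ± 0.36). The T and NK cell transcripts given next were also lower in astrocytes. Within neurons, the library of animal 5 had the lowest T and NK cell sum (1306 CPM) and the highest ribosomal sum (19705 CPM) and early response sum (4672 CPM). The same library also held 86033 CPM of pituitary hormone genes, and a link between these sums was not tested.

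T and NK cell genes were lower in astrocytes throughout the tested members. Of 17 listed genes in the table, 12 passed the filter on low counts, and all 12 were lower in astrocytes, with no overlap. The 12 include Thy1, whose product the neuron gate selected, so that its direction was set by the sort. The list, which includes Thy1, summed to 132.7, 254.8, 113.1 and 327.8 CPM in astrocytes, against 2238, 2446, 2611 and 1306 CPM in neurons. Thy1 is also an antigen of mouse T cells. Ccl5, a chemokine of T and NK cells, had 16.6, 44.96, 11.5 and 35.4 CPM in astrocytes, against 171, 550.2, 553 and 323 CPM in neurons (-4.12 ± 0.40), Ms4a4b, a T cell membrane protein, had 27.6, 74.9, 21.3 and 75.3 CPM in astrocytes, against 1025, 725, 906 and 234 CPM in neurons (-4.00 ± 0.45), and Lck, the T cell receptor kinase, had 5.53, 5.00, 4.92 and 22.1 CPM in astrocytes, against 59.8, 178, 116 and 68.8 CPM in neurons (-3.73 ± 0.53). All 6 B cell genes in the table were below the filter, so that no B cell gene was tested.

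Other blood cell lists moved less. Of 11 tested neutrophil and monocyte genes (12 listed), 3 were lower in astrocytes: Ccr2, a monocyte chemokine receptor that T cells also carry, had 11.1, 34.97, 6.55 and 53.1 CPM in astrocytes, against 128, 125, 131 and 65.3 CPM in neurons (-2.34 ± 0.45), Ly6c2 was 11.9-fold lower, and Plac8 had 2 counts over the astrocyte libraries against 24 over the neuron libraries, a call lost without the neuron library of animal 3. Of 6 erythroid genes, all tested, 1 was lower and none higher. The share called lower was 27.3% for neutrophil and monocyte genes and 16.7% for erythroid genes, against a background of 13.7%. Of 12 tested heat shock genes, 1 was lower (8.33%) and none higher. With scaling by library totals alone 4 were lower, and 0 without the astrocyte library of animal 4 or the neuron library of animal 5.

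Pituitary hormone genes were called lower in astrocytes in 5 of 5 tested members of 11, and those calls rest on 1 library. Gh, growth hormone, had 304, 1049, 344 and 1107 CPM in astrocytes, against 1025, 475, 1207 and 65317 CPM in neurons, and Prl, prolactin, had 30.4, 159.9, 50.8 and 182 CPM in astrocytes, against 196, 120.0, 156 and 14095 CPM in neurons. Without the neuron library of animal 5, none of the 5 was called, and Gh stood at -0.37 on the log2 scale. Nnat, an imprinted gene of developing brain and endocrine cells, had 2157, 1748, 1639 and 1550 CPM in astrocytes, against 1196, 1075, 1509 and 19251 CPM in neurons (-1.70 ± 0.58); without that library its log2 fold change was 0.50. Tmsb4x, thymosin beta 4, had 1189, 2997, 1311 and 3278 CPM in astrocytes, against 5724, 5752, 6540 and 1719 CPM in neurons (-1.17 ± 0.38), with the same library the lowest of the neuron group. Tmsb4x was not called without the astrocyte library of animal 2 or 4 or the neuron library of animal 4 (-0.96 to -1.01), and Nnat not without the astrocyte library of animal 3, 4 or 5.

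Markers of the other brain cells separated the groups less than the astrocyte and neuron markers did. Of 19 microglia genes in the table, all tested, 1 was lower in astrocytes (Selplg, named after its value was seen) and none higher. The share called lower was 5.26%, against a background of 13.7%, and the median fold change was -0.27 on the log2 scale. Ctss, which encodes the protease cathepsin S, had 581, 2248, 688 and 2170 CPM in astrocytes, against 2221, 1075, 2817 and 722 CPM in neurons, and Cx3cr1, the fractalkine receptor, had 608, 1898, 606 and 1772 CPM in astrocytes, against 2050, 850.3, 2415 and 584 CPM in neurons. In each cell type the 2 shallower libraries were the higher ones for both genes. Without the astrocyte libraries of animals 3 and 5, 9 of the 19 microglia genes were called lower in astrocytes, a choice made after the data were seen, and without the astrocyte library of animal 2 or 4 or the neuron library of animal 4 none was.

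Of 16 oligodendrocyte genes, all tested, 4 were lower (Mbp, Mobp, Cldn11 and Sox10), with Mbp, myelin basic protein, at 94.01, 259.8, 83.6 and 279 CPM in astrocytes, against 350.2, 500.2, 503 and 447 CPM in neurons (-1.40 ± 0.34), and none was higher; 2 were called lower without the astrocyte library of animal 2 and 1 without that of animal 4. Olig2 and Olig1 of the oligodendrocyte precursor list were higher in astrocytes, Olig2 at 205, 105, 164 and 124 CPM in astrocytes, against 25.6, 20.01, 30.2 and 0 CPM in neurons (3.14 ± 0.46) and Olig1 at 2.07 ± 0.35, while 5 of its 10 genes were below the filter and Pdgfra, the defining receptor, had at most 8.54 CPM in any of the 8 libraries. Of 17 endothelial genes, all tested, 1 was higher (Slc2a1) and 1 lower (Cdh5, named like Mobp, Cldn11 and Sox10 after its value was seen). Without the astrocyte libraries of animals 3 and 5, 9 oligodendrocyte and 9 endothelial genes were called lower, and without single libraries the endothelial counts ran from 0 to 1 higher and 0 to 3 lower. Among 8 tested mural genes of 12, Pdgfrb was higher, at 174, 115, 118 and 159.5 CPM in astrocytes, against 42.7, 25.01, 45.3 and 34.4 CPM in neurons (2.02 ± 0.35), and Higd1b, a pericyte gene, lower, at 2.77, 9.99, 4.92 and 8.86 CPM in astrocytes, against 51.3, 32.5, 15.1 and 24.1 CPM in neurons (-2.29 ± 0.63). Ttr, transthyretin of the choroid plexus, had 1189, 2598, 803 and 2613 CPM in astrocytes, against 7432, 2751, 2767 and 6532 CPM in neurons (-1.44 ± 0.45) and was the 1 gene called of 11 choroid plexus genes, all tested, a call lost without the astrocyte library of animal 2 or 4 or the neuron library of animal 2. Of 9 tested ependymal and motile cilia genes of 11 listed, 3 were lower (Ccdc153, Cfap126 and Tmem212), Tmem212 not without the astrocyte library of animal 2 or the neuron library of animal 3. Called lower were 25% of the oligodendrocyte genes tested and 33.3% of the ependymal genes, against a background of 13.7% of all tested genes. For choroid plexus, mural and endothelial genes the shares were 9.09%, 12.5% and 5.88%. Called higher were 12.5% of mural and 5.88% of endothelial genes, against a background of 14.8%. Median log2 fold changes were -0.83 for oligodendrocyte, -0.92 for ependymal and -0.76 for choroid plexus genes.

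**Figure D5:**
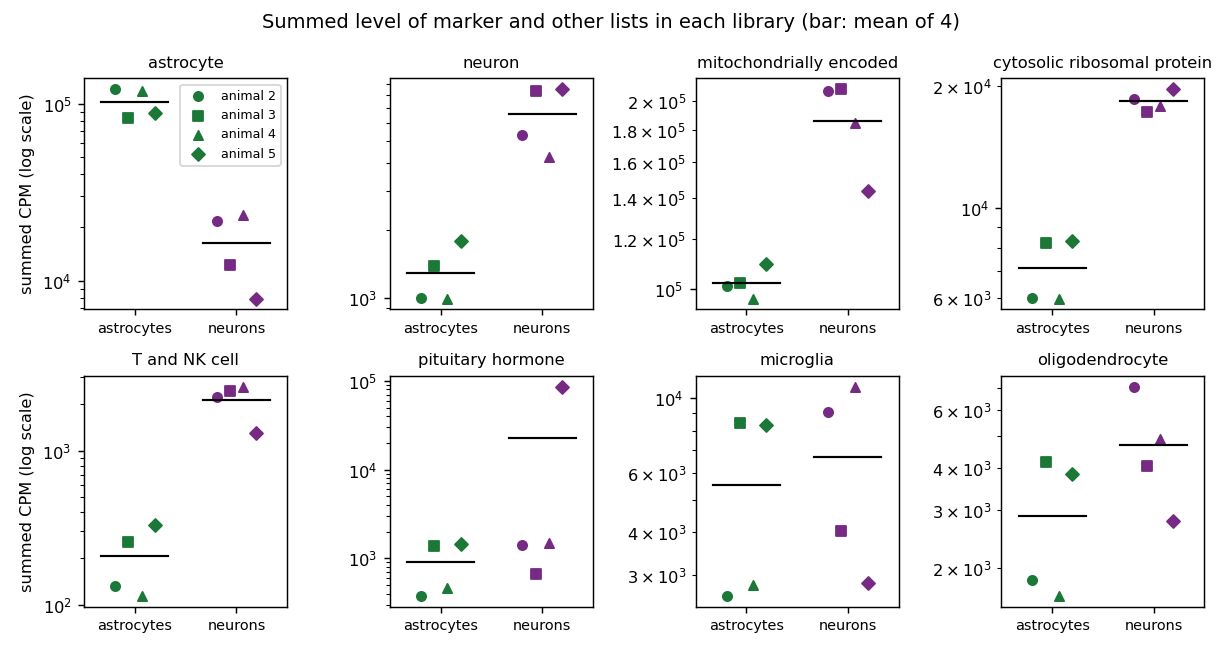
Summed CPM of 8 gene lists on log axes in each astrocyte and neuron library; the symbol gives the animal and the bar the mean of 4 libraries. Astrocyte, neuron, mitochondrial, ribosomal and T and NK cell sums separate the groups, pituitary hormone genes are high in 1 neuron library (86033 CPM), and microglia sums overlap (2588 to 8433 CPM in astrocytes, 2833 to 10801 CPM in neurons).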

How the data were processed

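Gene expression was measured by 3' RNA sequencing with molecular identifiers, as single-end reads, in RNA of sorted brain cells. Per the submitters' processing notes, STAR, featureCounts, Subread 1.6.2 and edgeR were used with GRCm38.p6; their settings are not given in the sources used here. The authors deposited counts per gene, and all 28936 counts of 100 or more have 2 significant digits, so a large count is known to about 5%. Where a count is low, its precision is that of counting.

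All genes were filtered with filterByExpr, scaled by TMM, and fitted over all 16 libraries with 1 mean per group in edgeR 4.0.16 (quasi-likelihood test, R 4.3.3), astrocytes minus neurons, with Benjamini-Hochberg adjustment over the 9091 genes tested and a threshold of 0.05. The authors also deposited normalization factors, which are ratios to the library total and served 1 alternative scaling, and a table of normalized signal whose making is not given in the sources used here and which was not used. CPM values divide the deposited counts by the scaled library size. Alternatives were other scalings, no filter, a fit of the 2 groups alone, DESeq2 1.42.0, a test against a 2-fold change, animal as a block, gene groups left out, libraries thinned to 116761 counts, and libraries left out. Samples were paired by animal, as read from the number in the sample titles. Deviations from the group means of same-animal libraries correlated at -0.06, -0.04, -0.03 and -0.06. The highest correlations of the same astrocyte libraries with neuron libraries of other animals were 0.12, 0.06, 0.07 and 0.04. These correlations therefore give the pairing no support of their own. A simulation over 8815 genes gave 100 genes a 4-fold and another 100 a 2-fold difference between astrocytes and neurons. The test called 74% of the first set and 11% of the second, and 1 of its 86 calls was false. In the data 28.5% of the tested genes were called, a larger share than was changed in the simulation. The Benjamini-Hochberg cutoff depends on that share, so these percentages do not give the power of the comparison reported here.

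The members and the gene lists were chosen with earlier results of these data known. Named were the sort and marker genes, the 12 largest called changes per direction without overlap and at 50 CPM or more in the higher group, the 10 most abundant called genes per direction, the 4 most abundant members of each list and all members of lists of 12 or fewer, and the listed pairs. Some genes that this rule names, and 3 listed pairs, are not reported here. Promoters came from the RefSeq table for GRCm38.p6. P-values measure the spread between animals sorted and sequenced in this series. Intervals and floors (3 counts) cover counting error only.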

Additional observations from a re-analysis of the deposited data

Results flagged for a closer look

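In 394 groups of 4 libraries (197 genes in each cell type), 20 had 1 library far from the other 3 by Dixon's ratio, and chance gives about 1 in 20. The neuron library of animal 5 was high for Cpe (2303 CPM), Nnat (19251 CPM) and Prl (14095 CPM) and low for Ccr2 (65.3 CPM), Olig2 (0 CPM) and Tmsb4x (1719 CPM). The other neuron libraries that stood apart were that of animal 2 for Thy1 (188 CPM, low), that of animal 3 for Celf4 (975 CPM, high) and that of animal 4 for Maob (60.4 CPM, high).

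Among astrocyte libraries, that of animal 5 was high for Gad1 (39.9 CPM), Lck (22.1 CPM), Klrd1 (8.86 CPM) and Sardh (119.6 CPM) and low for Fxyd1 (70.9 CPM). That of animal 3 was low for Gstm5 (475 CPM), Hmgcs1 (419.6 CPM) and Slc39a1 (40.0 CPM) and high for Zic1 (285 CPM). Sst stood at 11.5 CPM in that of animal 4 and Kcnk9 at 2.77 CPM in that of animal 2, with 0 in the other 3 astrocyte libraries for each. The causes were not tested.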

How the results depend on the processing

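The counts of 1343 genes higher and 1247 lower in astrocytes stayed within 1.5 times under other scalings, no filter, DESeq2, the block by animal (1231 higher and 1087 lower), gene groups left out and libraries left out (1056 to 1417 higher and 1042 to 1445 lower without 1 library). They fell to 796 and 596 with the 2 groups alone (4865 genes tested), to 514 and 524 with thinned libraries (4619 genes tested) and to 543 and 503 when a 2-fold change was the null. In none of the alternatives did a shared call change sign. Scaling by totals moved the median of all genes by -0.18, thinning by -0.21 and the fit of 2 groups by -0.13.

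Of 175 named genes called, 158 kept their call in every alternative that tested them, apart from the test against a 2-fold change. Of 191 named genes tested in the main fit, 151 were tested with thinned libraries and 166 with the 2 groups alone. A gene that an alternative did not test was not counted as losing its call. With animal as a block, Acsl4 (-1.04) and Nnat (-0.97) lost their calls, and no other named gene did. Leaving out single libraries, Nnat ran from -2.06 to 0.50 (without neurons of animal 5) and stood at 0.56 without animal 5. Genes near 0 that were not called turned as well: Aldoa to -0.0455 and Slc38a1 to -0.0561 with library totals, Slc38a1 to -0.000843 with 2 groups and to -0.39 with thinning, and Ldha to -0.00852 with thinning. Leaving out single libraries, Ctss ran from -0.58 to 0.098, Cx3cr1 from -0.56 to 0.0891 and Itgam from -0.85 to 0.0933, highest without neurons of animal 4, and Slc38a1 from -0.0241 without neurons of animal 5 to 0.28. Pecam1 was called lower in 9 alternatives (-1.21 to -1.66). The causes were not tested. Of 2310 list counts under the alternatives, 274 were over 1.5 times off. Depth limits genes at a few counts per library.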

Other observations

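Tubb2b and Rgs20, both called higher in astrocytes and named here after their input values were seen, were low in the input libraries. Tubb2b averaged 25.1 CPM in the input libraries, against 420 to 1327 CPM in astrocytes and 79.1 to 252 CPM in neurons. Rgs20 averaged 24.0 CPM there, against 415 to 852 CPM in astrocytes and 34.4 to 162 CPM in neurons. The reason was not tested.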
